A study of Arabidopsis thaliana with 40 samples.

Results

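Histone H3 acetylated at lysines 9 and 14 (H3K9/14ac) was followed in whole seedlings of Arabidopsis thaliana by ChIP-seq, the sequencing of chromatin fragments pulled down with an antibody. Described here are 472 sites that were called as peaks with water and not with the deacetylase inhibitor trichostatin A (TSA) after 3 h. A lost call does not mean that no reads were left, as the reads below show. These members were the peaks of the water replicate 1 list on chromosomes 1 to 5 that shared at least 1 bp with a peak of water replicate 2 and none with a peak of either TSA list of 3 h. They were thus chosen by the peak calls of these 4 libraries. For TSA against water at 3 h, their reads and the authors' deposited calls are given as a description, with no test made here. They made up 5.26% of the 8972 peaks common to both water lists, out of 13872 nuclear peaks in the water replicate 1 list. The other 8500 common peaks overlapped a TSA peak and are called kept peaks.

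The seedlings were of the ecotype Col-0, 7 days old and grown in shaken liquid culture, with no mutation or transgene named in the labels. The treatments were TSA (5 µM), the nitric oxide donor S-nitrosoglutathione (GSNO, 250 µM), glutathione (GSH, 250 µM), GSNO (250 µM) with the nitric oxide scavenger cPTIO (500 µM), and water. Each treatment lasted 3 h or 16 h and had 2 biological replicates, per the labels, with a ChIP and an input library each (20 ChIP and 20 input samples). The inputs were not analysed here, and TSA of 16 h was analysed as peak lists alone. A whole seedling mixes all of its tissues, so that fewer acetylated cells and less acetylation per cell cannot be told apart in any value that follows. Of the marker lists, 1 root gene (SCR) and 1 shoot gene (RBCS1A) and no seed gene carried a common peak, and none of them was a member.

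Acetyl groups on the tails of histone H3 are added by acetyltransferases and removed by deacetylases. H3K9/14ac lies mainly around the start of transcribed genes in plants, and its level goes with their activity. TSA blocks the zinc-dependent deacetylases, the RPD3 family among them. ChIP-seq reads are counted within a library, so that each level here is relative to the other sites of its own library and no total of acetylation is given.

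The 4 lists behind the rule held 13641 (TSA replicate 1), 11091 (TSA replicate 2), 13872 (water replicate 1) and 9111 (water replicate 2) nuclear peaks. Of the kept peaks, 7288 lay in both TSA lists, 1064 only in that of replicate 1 and 148 only in that of replicate 2. Reads per region were recovered for 17 ChIP libraries from the authors' deposited tables of 13362 regions, with 1590342 (water, 16 h) to 4053207 (GSNO, 3 h) reads per library. In each group library a is the one with fewer reads and library b the other, since the tables do not tie them to replicates 1 and 2, and water of 16 h had library a alone. The peak lists of water replicate 2 and TSA replicate 2 at 16 h, with 1044 and 344 nuclear peaks, stood apart from all others.

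Members were spread over the genome. Chromosomes 1 to 5 held 119, 73, 96, 76 and 108 of them, which is 5.16% to 5.48% of the common peaks of each chromosome. In the order of common peaks along the chromosomes, 44 members had another member as a direct neighbour, and the longest run was 3 members. One such run, picked after its values were seen, lay on chromosome 2 at VPS2.1, PLA2-ALPHA and HEN2, and the other on chromosome 5 around SOS2, a protein kinase of salt tolerance, between a pair of sites in no annotated gene. The median width of a member was 481 bp, close to the 483 bp of kept peaks.

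Members lay outside protein-coding genes more often than kept peaks did. The midpoint was in a protein-coding gene for 414 members (87.7%) and for 98.2% of kept peaks, by the gene table of RefSeq (TAIR10.1). A further 14 members (2.97%) lay in a gene for a long non-coding RNA, against 0.365% of kept peaks. Other gene types (small RNA precursors, pseudogenes, other transcripts) held 23 members (4.87%), against 1.11% of kept peaks, and 21 members (4.45%) lay in no annotated gene, against 0.353% of kept peaks. Sites with fewer than 10 coding genes within 50 kb were 4.45% of members and 1.06% of kept peaks. These shares were not tested, since the rule chose the peaks by the signal itself. Among the non-coding members were TAS1A and TAS1B, precursors of trans-acting small interfering RNAs, named here after their values were seen. TAS1A had 88.1 and 99.5 normalised reads with TSA, against 162 and 199 with water. TAS1B had 71.2 and 82.9 normalised reads with TSA, against 125 and 140.0 with water.

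Normalised reads were recovered reads scaled to a common library size. Of the members, 452 overlapped a region of the tables, in 450 regions (member regions), and 20 overlapped none, among them the genes NAI1, CLASP, GPT1 and ABCI17, so that no reads are given for those. The median member region held 97.1 and 112 normalised reads in the TSA libraries, against 166 and 163 in the water libraries of 3 h. The 6 libraries of GSNO, GSH and GSNO with cPTIO at 3 h had medians of 151 to 165, and the 7 libraries of 16 h had medians of 151 to 162. Regions of kept peaks had medians of 201 to 202 with TSA and of 203 to 218 in the other libraries. Member regions were thus below kept regions in every library, and the TSA libraries were lowest.

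**Figure D1:**
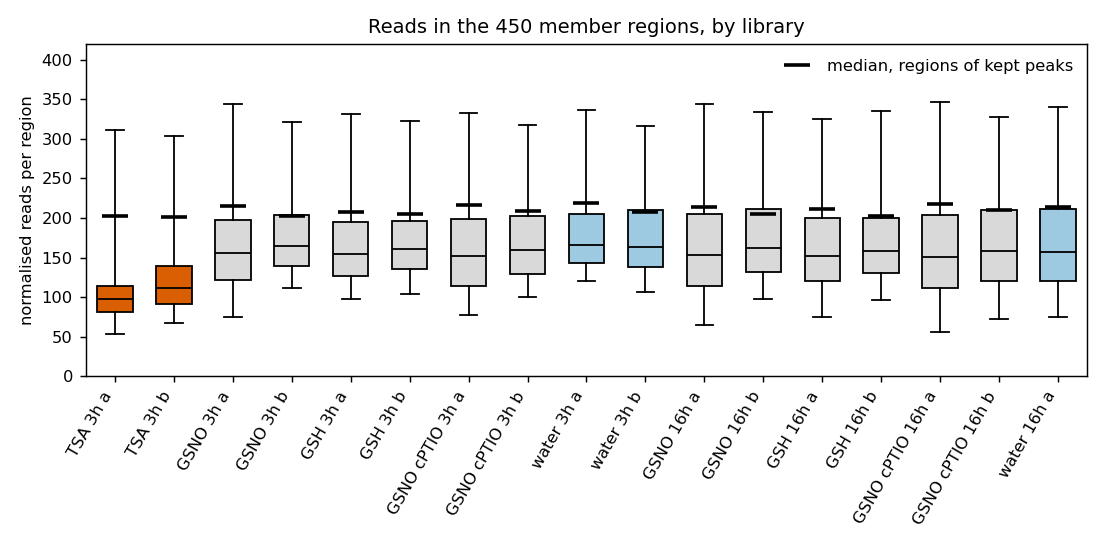
Normalised reads in the 450 member regions by library; boxes span the middle part from the lower to the upper quartile, lines mark medians and whiskers the 5th and 95th percentiles, with black dashes at the median of the regions of kept peaks. The medians of the TSA libraries, 97.1 and 112, lie under those of all 15 other libraries, which run from 151 to 166.

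The log2 fold of TSA over water at 3 h in the authors' deposited table is the contrast that chose the members, so it is given as a description. Its median over member regions was -0.65 (quartiles -0.91 and -0.40, range -2.32 to 0.87), against -0.12 over regions of kept peaks and 0.00 over all 13362 regions. The fold was under 0 in 426 of 450 member regions. At a false discovery rate (FDR) under 0.05 in the authors' table, 228 member regions were lower and 1 was higher, while over all regions 10.1% were called lower and 10.7% higher. Member regions were 16.9% of the 1353 regions called lower. Both TSA libraries were under both water libraries in 361 of the 450 member regions, while the same held in 30.3% of all regions. Both TSA libraries were also under all 6 libraries of GSNO, GSH and GSNO with cPTIO at 3 h in 239 of the 450 member regions. This was so in 19.9% of all regions.

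The 10 members with the lowest folds were picked by those folds, so that a gap between TSA and water is built in. They had clear gaps between TSA and every other library of 3 h. AT5G50110, on chromosome 5 at 20373648 to 20374184, had 29.4 and 47.6 normalised reads with TSA, against 181 and 200.1 with water, a log2 fold of -2.32 in the authors' deposited table. EXPA6, an expansin that loosens cell walls (chromosome 2, 12431781 to 12432222), had 40.7 and 50.9 normalised reads with TSA, against 211 and 225 with water, a log2 fold of -2.26. In GATA1, a GATA-type transcription factor gene (chromosome 3, 8685964 to 8686509), TSA libraries had 49.7 and 76.3 normalised reads and water libraries 235 and 246, a log2 fold of -1.94. The nearest TSA peak lay 21709 bp from the member in AT5G50110, 600 bp from that in EXPA6 and 400 bp from that in GATA1.

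ECT2, which codes for a reader of methylated adenosine in messenger RNA, had 36.2 and 49.8 normalised reads with TSA at its member, against 148 and 139 with water (log2 fold -1.75 in the authors' deposited table). The bodies of the ECT2, EXPA6 and GATA1 genes held a TSA peak outside the member. The long non-coding RNA gene AT1G67365 had 74.6 and 91.8 normalised reads with TSA, against 317 and 258 with water, a log2 fold of -1.80. AT3G00520, a transcript of no stated class, had 30.5 and 57.5 normalised reads with TSA, against 152 and 136 with water. The site in no annotated gene, on chromosome 2 at 10454864 to 10455359, had 45.2 and 82.9 normalised reads with TSA, against 183 and 199 with water. In the other members of this group, AT4G29260, AT1G54680 and AT1G68238, TSA libraries held 71.2 to 98.4 normalised reads and water libraries 239 to 296. At each of the 10 members both TSA libraries were under the 6 libraries of GSNO, GSH and GSNO with cPTIO of 3 h as well. The same held in 19.9% of all regions.

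**Figure D2:**
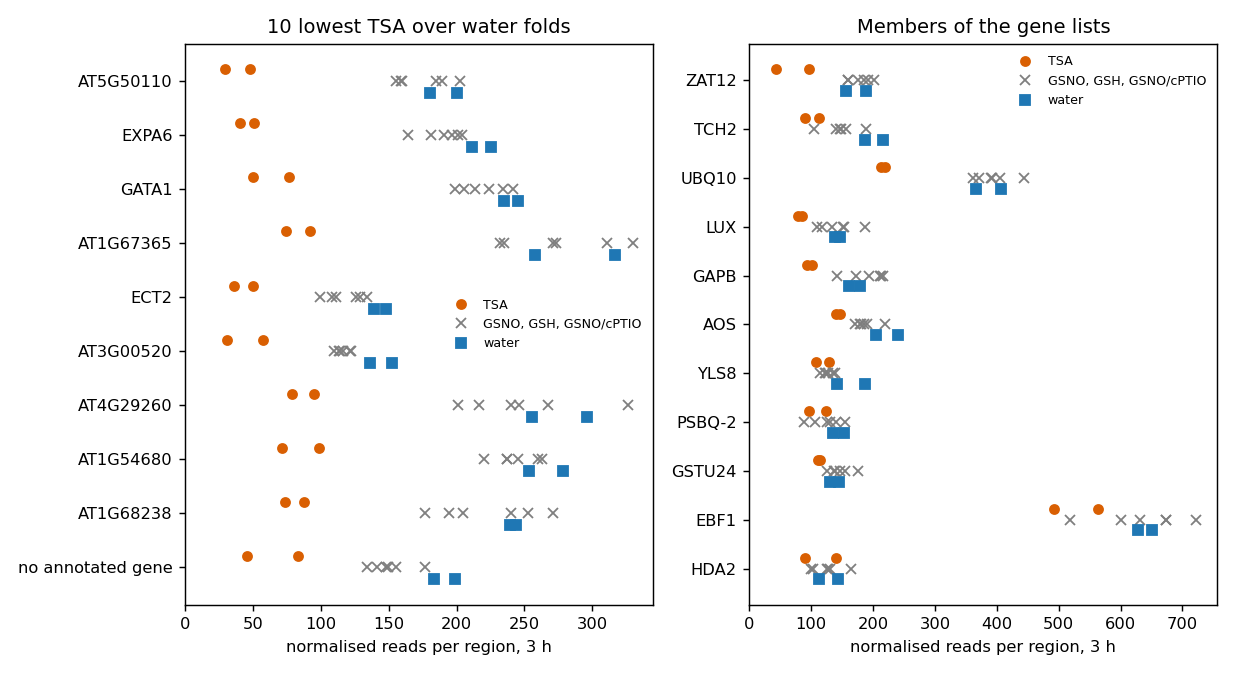
Normalised reads per region at 3 h for the 10 members with the lowest folds (left) and for the other named members of the gene lists (right), with 2 points for TSA, 6 for the other treatments and 2 for water. On the left, where the fold itself chose the members, no TSA point reaches the other libraries. On the right both TSA points of PSBQ-2 (96.0 and 124) and 1 of HDA2 (140.4) lie among those of the other libraries.

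The 10 members with the highest water level each lay in a gene that held a TSA peak, at 27 to 478 bp from the member. In 8 of the 10 the region of the tables also held a kept peak, EBF1, GT18, PDV2 and AT1G50040 among them, so that its reads are partly those of the kept peak. EBF1, the F-box protein that marks the ethylene factor EIN3 for breakdown, held 2 members in 1 region, with 493 and 563 normalised reads with TSA, against 651 and 629 with water (log2 fold -0.29 in the authors' deposited table). GT2, a trihelix transcription factor gene, had 356 and 274 normalised reads with TSA, against 561 and 542 with water, the lowest fold of these 10 at -0.82. UGT85A4, a glucosyltransferase gene, had 387 and 364 normalised reads with TSA, against 612 and 579.5 with water. GT18, a galactosyltransferase gene of xyloglucan synthesis, had 418 and 471 normalised reads with TSA, against 683 and 617 with water. In the region of AT1G50040 the groups overlapped, with 487 and 482 normalised reads with TSA, against 517 and 397 with water. PDV2, a plastid division gene, had 358 and 341 normalised reads with TSA, against 431 and 423 with water. Its member was a peak in only 1 of the 6 lists of the other treatments at 3 h.

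The 5 members with the highest folds also lay within 308 bp of a TSA peak. AT3G07540 was the member region called higher in the authors' deposited table, with 406 and 409 normalised reads with TSA, against 268 and 174 with water (log2 fold 0.87, FDR 0.00476). NCED5, an enzyme of abscisic acid synthesis, had 312 and 424 normalised reads with TSA, against 307 and 230 with water, a log2 fold of 0.44. AT4G34840, AT5G60800 and AT1G48160 each had a log2 fold of 0.20, and none of these 4 was called.

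The distance from a member to the nearest TSA peak had a median of 2367 bp and ran from 5 to 108391 bp, and the members within 500 bp had folds closer to 0 than the rest. The 86 members within 500 bp of a TSA peak had a median log2 fold of -0.32, with 21 of their 84 regions called lower in the authors' deposited table. For 65 of them that TSA peak overlapped another peak of the water replicate 1 list (median log2 fold -0.33), and for 21 it overlapped none there (-0.19). The 26 member regions that also held a kept peak were all among these 84, and the other 58 had a median log2 fold of -0.42, with 18 called lower. The 129 members farther than that but within 2000 bp had a median of -0.73 and 72 of 122 regions called lower. The 257 members farther than 2000 bp, 54.4% of all, had a median of -0.72 and 135 of 244 regions called lower. Over all regions 10.1% were called lower. All of these calls come from the libraries that chose the members and are a description. At the edge of the rule, 15 members lay within 50 bp of a TSA peak and had a median log2 fold of -0.12, against -0.05 for 16 kept peaks that overlapped one by at most 50 bp. The smallest such overlap was 4 bp.

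**Figure D3:**
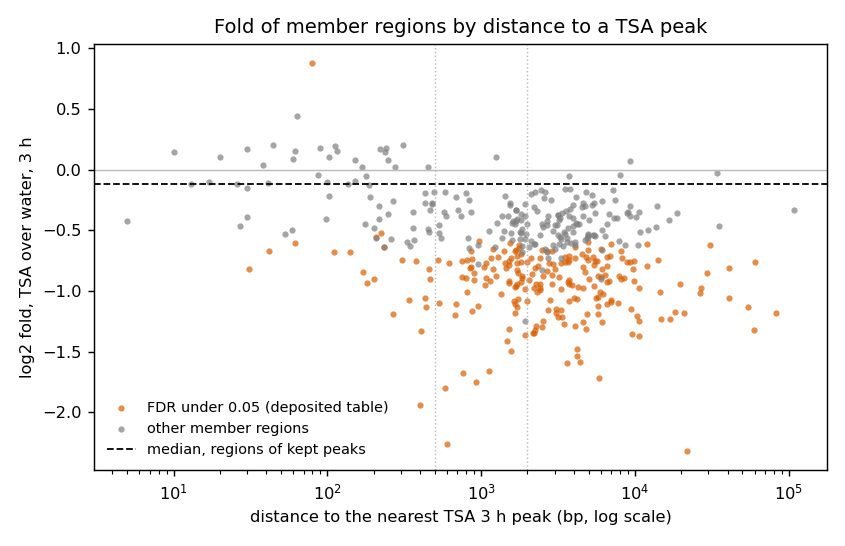
Log2 fold of TSA over water at 3 h in the authors' deposited table for each member region, against the distance in bp (log scale) to the nearest TSA peak; orange points have an FDR under 0.05 and the dashed line is the median of kept peaks (-0.12). Points within 500 bp, left of the first dotted line, centre on -0.32, and those beyond 2000 bp, right of the second, on -0.72.

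The gene of the member held a TSA peak elsewhere in its body for 89 members and none for 362. The median log2 fold was -0.52 in the first set and -0.67 in the second, and -0.88 for the members in no annotated gene. Members in coding genes had a median of -0.63, those in long non-coding RNA genes -0.81 and those in other gene types -0.80. The 165 members that were peaks in all 6 lists of the other treatments at 3 h had a median of -0.80, against -0.57 for the rest.

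Of the 8906 genes with a common water peak, 462 held a member (5.19%). In 14 lists of genes for hormones, stress, light, metabolism, chromatin and reference genes, 13 of 162 genes with a common peak held one (8.02%). Auxin and brassinosteroid response (9 genes with a common peak), immune signalling and salicylic acid (21), primary metabolism (12) and ribosome and translation (11) had 0 members. No test was made of these counts. The members were EXPA6 in cell wall and expansion; EBF1 and TCH2 in ethylene, touch and calcium; AOS in jasmonate; ZAT12 in abscisic acid, cold and drought; and LUX in circadian clock and light. GAPB and PSBQ-2 stood for photosynthesis, GSTU24 for oxidative stress, NRT1.1 for nitrate, HDA2 for acetyltransferases and deacetylases, and UBQ10 and YLS8 for reference genes.

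Among stress and hormone genes, ZAT12 (listed as RHL41), a zinc finger factor of oxidative, cold and light stress, had 42.9 and 96.2 normalised reads with TSA, against 156 and 189 with water (log2 fold -1.32 in the authors' deposited table). TCH2, a calmodulin-like protein gene induced by touch, had 112 and 89.6 normalised reads with TSA, against 216 and 188 with water, a log2 fold of -1.01. AOS, the allene oxide synthase of jasmonate synthesis, had 147 and 139 normalised reads with TSA, against 204 and 240.1 with water, a log2 fold of -0.64. Both TSA libraries were under both water libraries at each of these sites, as in 30.3% of all regions. GSTU24, a glutathione transferase gene, had 111 and 114 normalised reads with TSA, against 130 and 145 with water, a log2 fold of -0.30 that was not called.

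LUX (listed as PCL1), a DNA-binding subunit of the evening complex of the clock, shares its member with the overlapping gene AT3G46650. The region had 77.9 and 85.1 normalised reads with TSA, against 138 and 147 with water, a log2 fold of -0.81 in the authors' deposited table. GAPB, a subunit of the chloroplast glyceraldehyde-3-phosphate dehydrogenase of the Calvin cycle, had 93.8 and 102 normalised reads with TSA, against 161 and 178 with water, a log2 fold of -0.80. PSBQ-2, a subunit of the oxygen-evolving complex of photosystem II, had 96.0 and 124 normalised reads with TSA, against 152 and 135 with water, a log2 fold of -0.40 that was not called. UBQ10, a polyubiquitin gene widely used as a reference in expression studies, had 219 and 213 normalised reads with TSA, against 407 and 367 with water, a log2 fold of -0.85. YLS8, another reference gene, had 108 and 128 normalised reads with TSA, against 142 and 188 with water, and HDA2, itself a deacetylase of the RPD3 family, had 90.4 and 140.4 with TSA, against 144 and 113 with water. Neither was called, and the groups of HDA2 overlapped.

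Lists that the rule did not use show how often a member was a peak elsewhere. At 3 h the members were peaks in 91.5% and 48.7% of cases in the GSNO lists of replicates 1 and 2, in 90.0% and 82.6% in the GSH lists, and in 93.9% and 53.8% in the lists of GSNO with cPTIO. Kept peaks were found more often in each, at 98.6% and 80.1% with GSNO, 98.4% and 96.9% with GSH, and 98.8% and 85.2% with GSNO and cPTIO. All 6 lists held 165 members (35.0%) and 73.7% of kept peaks. The lower shares belong to the shorter lists, which had 7859 (GSNO replicate 2) and 8626 (GSNO with cPTIO replicate 2) nuclear peaks, against 11714 to 13568 in the other 4.

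In 6 members no list of the other treatments at 3 h held a peak: HRS1, AT2G20740, AT3G63290, ASY2, AT5G37550 and a site in no gene on chromosome 1. Of these, 3 overlapped a region of the tables. HRS1, whose region holds a second member, had 160.4 and 239.9 normalised reads with TSA, against 368 and 308 with water. AT2G20740 had 303 and 372 normalised reads with TSA, against 380 and 346 with water. AT3G63290 had 259.8 and 209 normalised reads with TSA, against 286 and 219.8 with water. At the 2 genes named last the groups overlapped, a TSA peak lay within 137 bp, and the region also held a kept peak.

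After 16 h the TSA replicate 1 list, the longest of the series with 14736 nuclear peaks, held 293 members (62.1%, exact binomial 95% interval 57.5% to 66.5%, which covers counting error only). It held 93.9% of kept peaks (93.4% to 94.4%). Lists of similar length from other treatments at 16 h held more of the members, at 88.3% in GSNO replicate 1 (13458 peaks) and at 87.1% and 85.8% in GSH replicates 1 and 2 (13780 and 13403 peaks). Shorter lists held fewer members: 71.0% and 24.8% with GSNO and cPTIO, 50% in GSNO replicate 2, and 36.9% in water replicate 1, where kept peaks stood at 91.5%, 62.7%, 81.8% and 69.5%. The sparse list of TSA replicate 2 held 1 member and 302 kept peaks, and that of water replicate 2 held 0 members, which allows a share of up to 0.636% by the limit of 3 counts (exact 95% bound 0.778%), and 1 kept peak. The second TSA library thus gives no repeat of the share in the first.

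**Figure D4:**
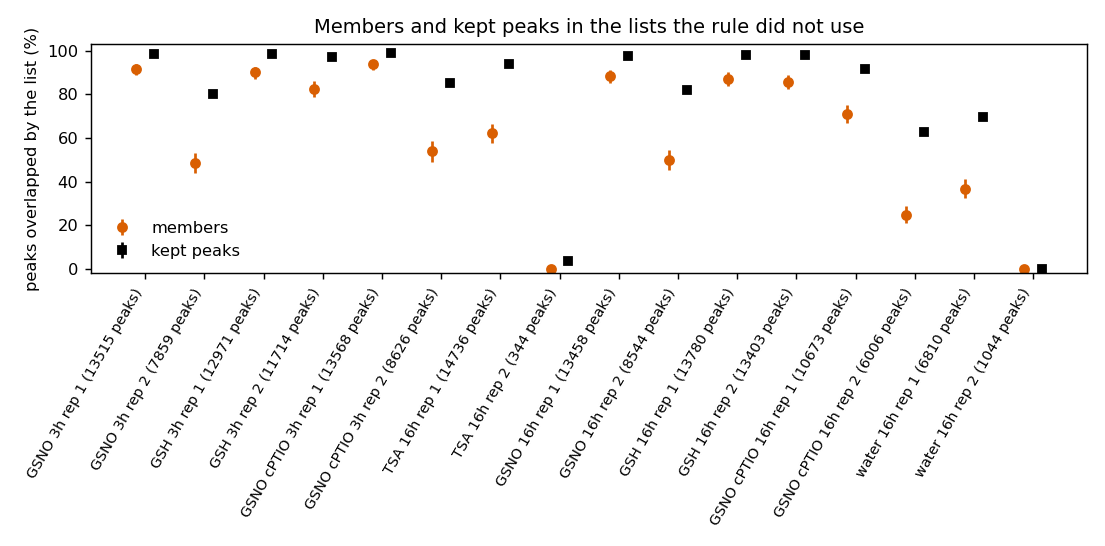
Share of the 472 members (orange circles) and of the 8500 kept peaks (black squares) that overlap a peak of each list the rule did not use, with exact 95% intervals; the nuclear peaks of each list are given on the axis. Members lie under kept peaks in each list. The TSA 16 h replicate 1 list, at 62.1% against 93.9% (-31.9 points), has a wider gap than the GSNO replicate 1 and GSH lists of 16 h. Shorter lists of 16 h without TSA have a like or wider gap: -31.8 points in GSNO replicate 2, -32.6 in water replicate 1 and -37.9 in GSNO with cPTIO replicate 2.

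The same was seen site by site. Of 364 members that were peaks in GSNO replicate 1 and both GSH lists of 16 h, 116 (31.9%, 27.1% to 36.9%) had no peak in TSA replicate 1 of 16 h. Of 8136 such kept peaks, 427 (5.25%, 4.77% to 5.76%) had none. These intervals treat sites of 1 library as independent and say nothing of the spread between libraries.

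Members were weaker sites than kept peaks also where TSA and water played no part. By the mean level in the 6 libraries of GSNO, GSH and GSNO with cPTIO at 3 h, 58.4% of the 452 members with a region fell in the lowest of 4 equal bins of common peaks. In that bin 59.8% of 264 members and 87.9% of 1969 kept peaks overlapped a TSA replicate 1 peak of 16 h. In the next bins by rising level, the shares were 74.7% of members and 94.5% of kept peaks, then 67.3% and 96.3%, then 69.0% of 42 members and 96.7% of 2191 kept peaks. The GSH replicate 1 list of 16 h held 89.0%, 94.5%, 94.5% and 78.6% of members in these bins, and 95.4% to 99.4% of kept peaks. Without the members that had a TSA peak of 3 h within 500 bp, the shares in the TSA list were 60.1% (146 of 243), 60 of 80, 74.3% (26 of 35) and 66.7% (6 of 9). The GSH list held 89.3%, 97.5%, 97.1% and 77.8% of this smaller set. Within the lowest bin members were still the weaker set, with a median level of 136 normalised reads, against 146 for kept peaks.

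**Figure D5:**
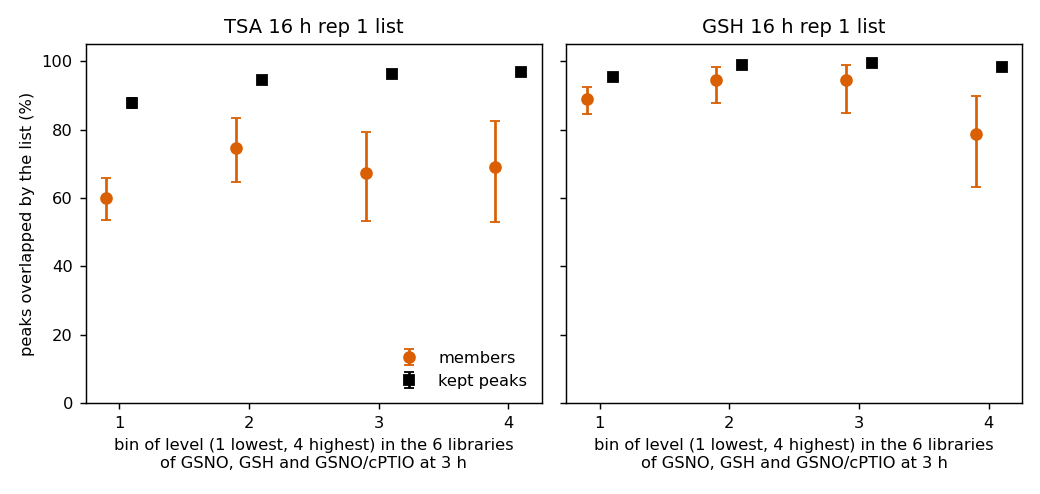
Share of members (orange) and kept peaks (black) that overlap the TSA replicate 1 list (left) or the GSH replicate 1 list (right) of 16 h, in 4 equal bins of the level in 6 libraries that the rule did not use; bars are exact 95% intervals for counting error. In the TSA list members lie at 59.8% to 74.7% and kept peaks at 87.9% to 96.7% across bins.

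The median log2 fold of TSA over water at 3 h was -0.65 over the 291 regions of members found in that TSA list of 16 h and -0.65 over the 160 regions of members not found, a difference that was not tested. EXPA6, GATA1, AT5G50110, UBQ10, ZAT12, TCH2 and AOS were peaks again in it. ECT2, LUX, YLS8 and AT1G68238 were not, although each was a peak in GSH replicate 1 of 16 h.

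With the other treatments the level of the members was close to that with water. At 3 h the median log2 fold over member regions in the authors' deposited tables was -0.06 for GSNO, -0.08 for GSH and -0.11 for GSNO with cPTIO over water, beside 0.00 over all regions in each. Regions of kept peaks had medians of -0.04, -0.06 and -0.02 in the same order. These comparisons share the water libraries that chose the members, so no test is given for them. At 16 h, with another water library, the medians were 0.01, 0.01 and -0.02 over member regions, and -0.03, -0.04 and 0.01 over regions of kept peaks.

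Tests were made with limma on recovered reads over all 13362 regions, two-sided, with Benjamini-Hochberg adjustment, in comparisons that do not set TSA against water at 3 h. Between GSNO and GSH at 3 h, limma called 0 member regions and 0.0% of all regions. An unadjusted p under 0.05 was found for 5 member regions (1.11%), beside 1.71% of all regions. For GSNO without against with cPTIO at 3 h limma called 0 member regions as well (0.0% of all regions). Here 14 member regions (3.11%) had an unadjusted p under 0.05, beside 4.61% of all regions. The 95% interval of the log2 fold lay within 1 of 0 for 85.6% of member regions in the first comparison and for 83.3% in the second. Over all regions these shares were much the same, at 85.4% and 82.5%.

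SS2, a strictosidine synthase family gene, was the member region called at 16 h in each comparison with water. It had 121 and 112 normalised reads with GSNO, 138 and 133 with GSH, and 148 and 112 with GSNO and cPTIO, against 33.4 in the single water library. The log2 fold was 1.77 (SE 0.34, limma adjusted p = 0.0119), 1.99 (SE 0.34, adjusted p = 0.00337) and 1.91 (SE 0.34, adjusted p = 0.00490) in the order of these treatments. Without GSNO library a of 16 h the call with GSNO was lost (log2 fold 1.72, limma adjusted p = 0.110). All 6 treated libraries were higher, but the same water library enters each comparison and its own spread is unknown, being taken from the other groups. With 1 call among 450 member regions (0.222%) the share was under that of all regions called higher, 0.322% for GSNO, 0.374% for GSH and 0.554% for GSNO with cPTIO. The authors' deposited tables called 3, 9 and 4 member regions in either direction in these comparisons, among 0.935%, 2.16% and 0.561% of all regions. At 3 h SS2 had 76.8 and 133 normalised reads with TSA, against 156 and 190.0 with water.

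Between 3 h and 16 h limma called 2 member regions with GSNO, 1 with GSH and 13 with GSNO and cPTIO. These counts ran from 0 to 11, from 0 to 0 and from 4 to 27 when 1 library was left out. The shares of all regions given below are those with all libraries kept. With GSNO, 2 member regions were lower at 16 h and none higher (0.269% of all regions were called lower), AT4G34950 and ASPGA1, an asparaginase gene. AT4G34950 had 7.46 and 77.7 normalised reads at 16 h, against 188 and 162 at 3 h (log2 fold -2.76, SE 0.61, limma adjusted p = 0.0233). Without the first of these 16 h libraries its log2 fold was -1.16 and was no longer called. Both calls were also lost without GSNO library a of 3 h and without the trend, and that at ASPGA1 without GSNO library a of 16 h. With GSH, 1 member region was lower, AT5G00560 (0.225% of all regions were called lower), with 86.9 and 68.9 normalised reads at 16 h, against 181 and 174 at 3 h (log2 fold -1.19, SE 0.26, limma adjusted p = 0.0344). This call was lost without any 1 of its 4 libraries (limma adjusted p = 0.201 to 0.356) and without the trend.

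With GSNO and cPTIO, 4 member regions were higher (0.889%) at 16 h than at 3 h, beside 1.89% of all regions, and 9 were lower (2.0%), beside 1.55% of all regions. AT1G27020 had 25.4 and 76.7 normalised reads at 16 h, against 223 and 276 at 3 h (log2 fold -2.46, SE 0.42, limma adjusted p = 0.00141). AT5G23510 had 38.1 and 79.3 at 16 h, against 179 and 186 at 3 h, and a log2 fold of -1.71 (adjusted p = 0.00224). ADR1-L1, a helper immune receptor gene whose member also overlaps AT4G33310, had 60.3 and 96.2 normalised reads at 16 h, against 226 and 172 at 3 h, a log2 fold of -1.36 (adjusted p = 0.00242). CRK26, a receptor-like kinase gene, had 38.1 and 55.9 at 16 h, against 106 and 132 at 3 h, and AT3G14870 had 308 and 291 at 16 h, against 494 and 416 at 3 h. The 2 groups did not overlap at any of these 5 sites, which were named for being called, so this adds no support to the calls.

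The 4 that were higher at 16 h were DELTA-TIP, ARGAH2, FATB and PSBQ-2. DELTA-TIP, an aquaporin of the vacuole membrane, had 357 and 424 normalised reads at 16 h, against 190.0 and 208 at 3 h (log2 fold 0.96, SE 0.18, limma adjusted p = 0.00281). ARGAH2, an arginase gene, had 251 and 303 normalised reads at 16 h, against 140.0 and 176 at 3 h, a log2 fold of 0.81. FATB, a thioesterase gene of fatty acid synthesis, had 206 and 191 normalised reads at 16 h, against 90.0 and 122 at 3 h, a log2 fold of 0.92. PSBQ-2 had 213 and 232 at 16 h, against 88.6 and 155 at 3 h, a log2 fold of 0.91. Without GSNO with cPTIO library a of 3 h, 4 member regions were called in place of 13, and the calls at ARGAH2, FATB, PSBQ-2, CRK26, AT3G14870 and ADR1-L1 (log2 fold -1.17) were lost. The first 5 of these were also lost without at least 1 other library, and over such losses their log2 folds were 0.64 to 0.67, 0.70 to 0.86, 0.51 to 0.97, -1.49 to -1.06 and -0.64 to -0.47. Without the trend the calls at ARGAH2, PSBQ-2 and AT3G14870 were lost. The calls at AT1G27020, AT5G23510 and DELTA-TIP held without each of the 4 libraries.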

How the data were processed

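Per the labels, H3K9/14ac was immunoprecipitated from chromatin of seedlings with a plant ChIP-seq kit, and all libraries were prepared in parallel, pooled and sequenced together. The authors deposited 20 peak lists (1 a ChIP library) and 7 tables that compare treatments with water over the same 13362 regions. The lists' score column was deposited as 0 throughout, so peaks carry no strength. The tables hold log2 group means of normalised reads, log2 folds, and p-values with an FDR, as deposited by the authors. DiffBind and edgeR, and the builds TAIR10 and TAIR9, are named per the submitters' processing notes. The aligner and peak caller, not given in the sources used here, bear on which sites were listed.

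In 14 of 20 lists 1 line joins the ends of a chromosome by 2 blocks, and such lines were read by their longer block. Overlap meant 1 bp. Member genes are the RefSeq genes (TAIR10.1) at the midpoint of the peak. Coordinates are those of the lists, counted from 1. No sequence was analysed here.

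Each deposited log2 mean could be split into the whole reads of its libraries, each times a factor of its library. Reads of 17 libraries were recovered, 100% of values being whole within a relative tolerance of 1e-08. On simulated pairs over 13362 regions, 100% of values were right. Their depth, 1590342 to 4053207 reads in regions, limits the precision of each value. Binomial intervals of peak shares cover counting error only, and those of limma folds the spread between libraries. Recovered reads were scaled by trimmed mean (TMM) factors (trims 0.3 and 0.05) and moved to log2 with a pseudocount of 1. They were tested with limma 3.58.1 in R 4.3.3 (trend, all 17 libraries, 1 mean per treatment and time) and Benjamini-Hochberg adjustment, with calls under 0.05. In simulated data of the GSNO against GSH comparison at 3 h, 100% of 4-fold and 83% of 2-fold changes were called among 13362 regions. Of 190 calls there, 7 were false. Alternatives were another pseudocount, a filter on low reads, medians set equal, no trend, a block, other overlaps and leaving out libraries.

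Members and gene lists were chosen with earlier results of these data known. Named are the 10 members with most water reads, the 10 lowest and 5 highest folds, up to 10 called members by adjusted p, up to 12 members in gene lists, and up to 6 found in no list of the other treatments at 3 h.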

Additional observations from a re-analysis of the deposited data

How the results depend on the processing

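The number of members rests on the replicates. It was 620 to 1861 when the water replicate 2 list or either TSA list was left out, the highest without water replicate 2, and 1536 without TSA replicate 1. It was 119 with only water peaks of at least the median width, and 739 with lines of 2 blocks read as 1 interval, a reading chosen after seeing the data, which put 363 members on chromosome 3 in place of the 96 reported. Other overlaps, distances or the water replicate 2 list as base kept it at 386 to 546. The share in the TSA replicate 1 list of 16 h was 59.0% and 60.8% under the alternatives, and the median fold was -0.75 to -0.53 without 1 library, which was added after seeing the data. The cause of the changes below was not tested.

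No paired analysis was possible because the recovered libraries carry no replicate number. With the depth order as a replicate block, calls moved to 5 at 16 h for GSNO with cPTIO over water, and, for 16 h against 3 h, to 8 with GSNO, 2 with GSH and 22 with GSNO and cPTIO. Without the trend there were 2, 2 and 4 calls at 16 h against water for these 3 treatments in the order GSNO, GSH and GSNO with cPTIO, and 0, 0 and 8 for 16 h against 3 h. The authors' deposited tables called 3, 9 and 4 member regions at 16 h. Without 1 library in turn the calls ran from 0 to 2 for GSNO and from 2 to 7 for GSNO with cPTIO, both over water at 16 h, and from 0 to 3 for GSNO without against with cPTIO at 3 h. They ran from 0 to 11 for GSNO, from 0 to 0 for GSH and from 4 to 27 for GSNO with cPTIO between the times. For the block, the fits without the trend and those without 1 library, the share of all regions called was not taken. These counts thus describe how stable the calls were and show nothing particular to the members. The single water library of 16 h could not be left out. Of the 19 calls of single member regions, 14 were lost without at least 1 library and 5 held without each that could be left out. The SS2 calls with GSH and with GSNO and cPTIO were among these 5, with that water library always kept. Over all alternatives no call was reversed, and calls were lost in 43 cases. Simulated reads had the depths of these libraries and a fixed spread, set the same for all regions. In them 53% to 59% of 2-fold changes were called at 16 h against the single water library. Between groups of 2 libraries 74% to 83% were called. False calls ran from 7 of 190 (GSNO against GSH, 3 h) to 21 of 197 (GSNO with cPTIO, 16 h against 3 h).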
